A study of Mus musculus with 8 samples.

Results

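The levels of 10 mouse genes of the germline piRNA pathway and of germ cell RNA granules were followed across the 4 conditions of an RNA-sequencing series that counted reads on 46078 gene IDs. The members were taken by name: Ddx4, Dazl, Mael, Asz1, Piwil2, Piwil4, Tdrd1, Tdrd9, Mov10l1 and Gtsf1. The filter for testing was a mean count above 10 over the 8 libraries, which 16707 genes passed. Of the members, 9 passed it also without the libraries of their highest group, while Piwil4 passed through todPGCLCs alone, with a mean of 6.5 counts over the other 6 libraries, so counts are given with and without it. Each condition had 2 libraries of strand-specific poly-A RNA. tcESCs were male XY embryonic stem cells (ESCs) from C57BL/6 mice that carry the tesco-cfp reporter, a Sox9 enhancer driving a fluorescent protein, grown in medium with inhibitors of MEK and GSK3 and LIF (2iLIF). tc;Sf1ESCs were a single clone of tcESCs (XY;tesco-cfp;Sf1) that overexpresses a mouse Sf1 transgene. The clone and the transgene cannot be told apart where tcESCs are compared with tc;Sf1ESCs or with cells made from them. SCLCs, labelled as testicular somatic cell-like, were made from tc;Sf1ESCs and sorted for CFP at day 12 of culture. todPGCLCs were primordial germ cell-like cells (PGCLCs) sorted by GFP and a surface marker from testicular organoids at day 6, and they came from another C57BL/6 line (XY;Prdm1-gfp) that carries neither tesco-cfp nor Sf1 in its genotype. Per the study, the organoids were co-cultures of epiblast-like cells of that line with testicular somatic cell-like cells made from tc;Sf1ESCs. The line of origin and the cell state of todPGCLCs therefore cannot be told apart in any comparison with the other 3 groups. All 4 groups are XY and none holds embryonic germ cells.

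Small RNAs called piRNAs guide PIWI proteins to transcripts of transposable elements, which are cut in the cytoplasm or silenced in the nucleus by DNA methylation. In the male germ line of the mouse the pathway is assembled during fetal life, in perinuclear granules (nuage, intermitochondrial cement and piP-bodies) where RNA helicases, Tudor domain scaffolds and PIWI proteins meet. Several of these genes have promoters rich in CpG that are held silent in somatic cells by DNA methylation or by repressors that bind E-boxes, and mouse ESCs in 2iLIF are known to transcribe some of them.

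Most members stood low in tc;Sf1ESCs and high in todPGCLCs. Among the exceptions, Tdrd9 was higher in tc;Sf1ESCs than in tcESCs, and Dazl and Piwil2 were highest in tcESCs. In todPGCLCs against tcESCs, 7 of the 10 members were called higher (6 of 9 without Piwil4) and 0 lower, where 18.1% of all genes tested were called higher and 11.2% lower. A gene was called when its fold change passed 2 and its adjusted p was under 0.05 in the quasi-likelihood test of edgeR, with p adjusted by Benjamini-Hochberg across the 16707 genes. The 0 rests on Piwil2, which stood just under the fold limit and was called lower in 8 alternative fits, 2 of which left out a library. Against tc;Sf1ESCs, 7 members were called higher (6 without Piwil4) and 0 lower in todPGCLCs (19.4% and 13.3% of all genes). Against SCLCs, 5 were called higher (4 without Piwil4) and 0 lower (18.5% and 19.5%). In SCLCs against tc;Sf1ESCs, 5 members were called higher and 1 lower (24.2% and 18% of all genes), and in SCLCs against tcESCs 3 were called higher (2 without Piwil4) and 2 lower (24.4% and 18.2%). In tc;Sf1ESCs against tcESCs, 6 members were called lower and 1 higher, beside 5.85% and 6.13% of all genes. Comparisons that share a group share its libraries, so these counts are not independent of each other.

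The median log2 fold change over the 10 members was 1.27 in todPGCLCs minus tcESCs, 2.24 in todPGCLCs minus tc;Sf1ESCs and 1.11 in todPGCLCs minus SCLCs, where the median over all genes tested was 0.03, 0.01 and 0.01. It was 1.28 in SCLCs minus tc;Sf1ESCs, -0.10 in SCLCs minus tcESCs and -1.83 in tc;Sf1ESCs minus tcESCs, with 0.02, 0.05 and 0.00 over all genes. Without Piwil4 the 6 medians were 1.06, 2.01, 0.88, 1.58, -0.28 and -1.83 in the same order. The member median was thus below 0 in the SCLC and tcESC pair and in the ESC pair, and above 0 in the other 4, with or without Piwil4. In CPM (counts scaled to the library total), the libraries of the groups compared did not overlap for 9 members in todPGCLCs against tcESCs (83.7% of all genes tested), tc;Sf1ESCs (86%) and SCLCs (83.3%), for 9 in SCLCs against tc;Sf1ESCs (86.1%), 7 in SCLCs against tcESCs (85.3%) and 9 between the ESC lines (76.1%), so that with 2 libraries a group these counts were near those of all genes. By mean CPM, 8 members (7 without Piwil4) were highest in todPGCLCs and 2, Dazl and Piwil2, in tcESCs, and 7 were lowest in tc;Sf1ESCs. Of the 8, only Mael and Piwil4 were called above the next group. In the edgeR fit, todPGCLCs minus SCLCs was -0.04 ± 0.27 for Tdrd1, and todPGCLCs minus tc;Sf1ESCs was -0.03 ± 0.37 for Tdrd9. Shares of all genes were not computed for these ranks. The members summed to 232 and 253 CPM in tcESCs and to 197 and 315 CPM in todPGCLCs. Both todPGCLC libraries lay above all 6 other libraries for 7 members, 6 without Piwil4 (22.1% of all genes tested), and both tc;Sf1ESC libraries lay below all 6 others for 5 members, Ddx4, Mael, Asz1, Piwil2 and Mov10l1 (15.8% of all genes).

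**Figure D1:**
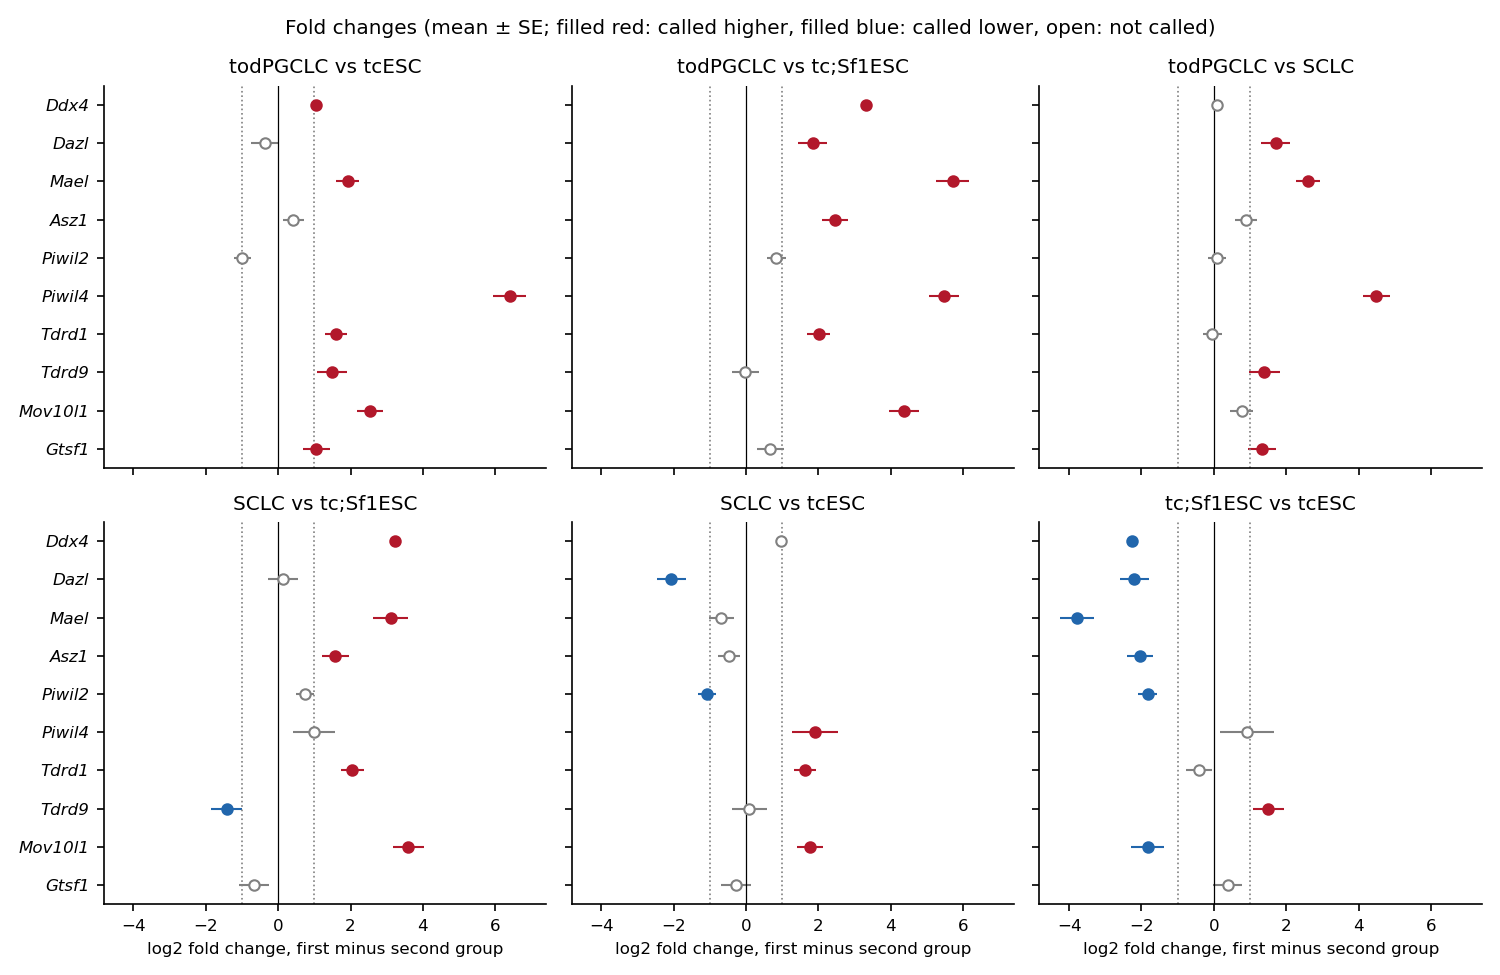
Log2 fold change of each member (x axis, first minus second group, ± SE from edgeR) in the 6 comparisons, with dotted lines at a 2-fold change. Filled points passed both limits, red for higher and blue for lower, and open points did not. The red points fill the panels of todPGCLCs against both ESC lines, up to 6.40 for Piwil4, and the blue points that of tc;Sf1ESCs against tcESCs, down to -3.79 for Mael.

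The labels were checked with the transgene and with cell type markers. Nr5a1, the gene that encodes SF1, had 1 and 0 counts in tcESCs, 52 and 30 in tc;Sf1ESCs, 341 and 535 in SCLCs and 6 and 5 in todPGCLCs. The 9 primordial germ cell (PGC) markers summed to 1103 and 1147 CPM in todPGCLCs and to 504 to 649 CPM in the other libraries. Of the 9, 5 (Prdm1, Tfap2c, Dppa3, Dnd1 and Fut4) were called higher in todPGCLCs than in tcESCs, beside 18.1% of all genes. The other 4 were not called, of which Itga6 (-0.49 ± 0.13) and Prdm14 (-0.43 ± 0.27) had values below 0 on the log2 scale. Prdm1 was no independent check, since todPGCLCs were sorted by a Prdm1 reporter. Nanos3 was called lower in todPGCLCs than in tc;Sf1ESCs, by 1.62 ± 0.32 (adjusted p = 0.00202), and Fut4 was at 5.67 CPM in todPGCLCs and 5.88 CPM in SCLCs. The 6 naive ESC markers summed to 3136 to 3634 CPM in both ESC lines, 1163 to 1274 in todPGCLCs and 575 to 632 in SCLCs. In SCLCs, Amh, which defines fetal Sertoli cells, had 10 and 22 counts, against 15 to 24 in the ESCs. The 8 Sertoli markers summed to 442 and 457 CPM in SCLCs, although Gata4 alone, with 11011 and 12551 counts, made up most of the sum. In SCLCs against tc;Sf1ESCs, 5 of them (Sox9, Gata4, Wt1, Cldn11 and Nr5a1) were called higher and 1 (Dhh) lower, beside 24.2% and 18% of all genes. Sox9 and Nr5a1 were no independent check, since the sort used a Sox9 enhancer and Nr5a1 is the transgene. Cldn11 had no counts in the ESCs and passed the filter through SCLCs alone. SCLCs also held visceral endoderm markers at 755 to 1026 CPM (8 of 8 genes above 3 counts) and mesenchyme markers at 1068 to 1161 CPM (6 of 6), so markers of several cell types were present and the cells are called SCLCs here by their label. In todPGCLCs the Sertoli markers summed to 20.1 and 24.2 CPM, against 4.13 to 10.6 CPM in the ESCs, and Wt1 was called higher there (332 and 293 counts) than in SCLCs (60 and 23). The visceral endoderm and mesenchyme lists summed to 16.5 to 28.5 CPM and 48.2 to 48.9 CPM in todPGCLCs and to 3.22 to 4.17 CPM and 5.98 to 7.14 CPM in the ESCs, where up to 3 of the 8 visceral endoderm genes and 1 of the 6 mesenchyme genes were at 0 in a library. The 6 meiosis markers summed to 184 and 211 CPM in todPGCLCs, 91.8 to 144 in SCLCs and 42.6 to 77.3 in the ESCs. Stra8 and Rec8 made up most of the sum in todPGCLCs (means of 76.0 and 73.5 CPM). In todPGCLCs against SCLCs, Rec8 and Dmc1 were called higher and Syce1 lower, beside 18.5% and 19.5% of all genes. In tc;Sf1ESCs against tcESCs, Rec8 was called higher and Stra8, Sycp3 and Sycp1 lower (list median -1.26), beside 6.13% and 5.85% of all genes. The part of other cell types in the values below was not tested, and in bulk libraries fewer cells that express a gene cannot be told apart from less RNA per cell.

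**Figure D2:**
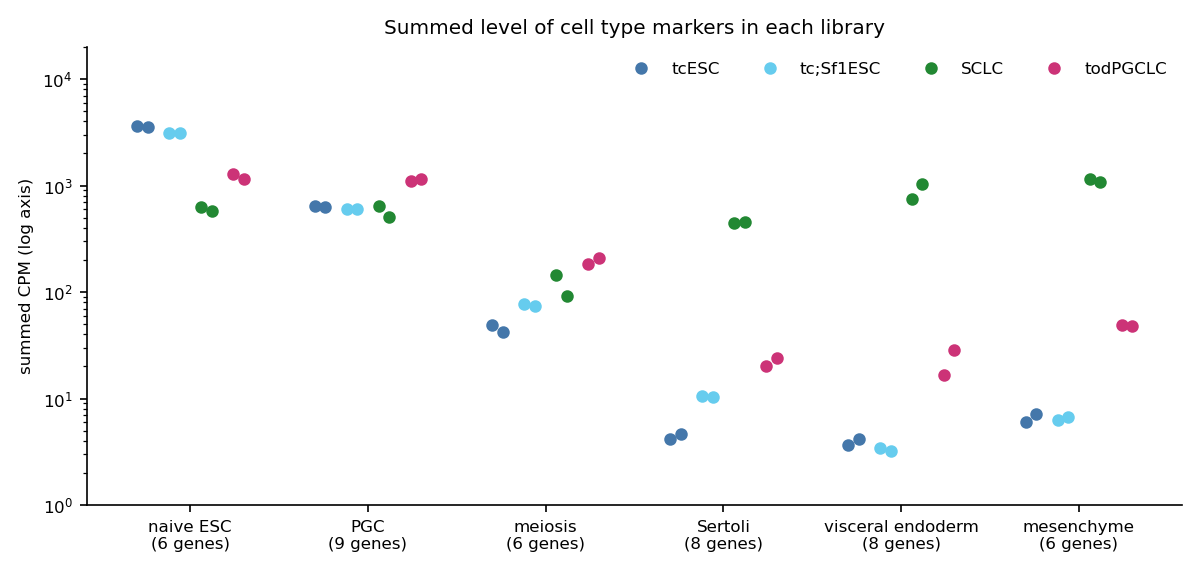
Summed level of each marker list (y axis, CPM on a log scale) in each of the 8 libraries, coloured by group. The todPGCLC libraries are highest for PGC markers (1103 and 1147 CPM), and the SCLC libraries are highest for Sertoli, visceral endoderm and mesenchyme markers.

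Because E-box binding repressors are known to hold germline genes silent, the bases just before the transcription start were read from RefSeq (GRCm38.p6), which held a window for 9 of the 10 members, all but Piwil2. The E-box CACGTG, a palindrome that MAX-containing complexes bind, was in the 250 bases before the start of 5 of the 9 members (55.6%), against 1634 of 27025 genes (6.05%). The stretches that carry it are shown with the E-box in capitals. For Ddx4 the site lies inside the gene as GENCODE M21 draws it, which starts 165 bases further upstream, and the site is shown with 10 bases on each side. For the others, only bases outside the GENCODE gene are shown.
Ddx4, chr13:112652324-112652349, minus strand: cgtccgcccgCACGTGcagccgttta
Mael, chr1:166238748-166238994, minus strand: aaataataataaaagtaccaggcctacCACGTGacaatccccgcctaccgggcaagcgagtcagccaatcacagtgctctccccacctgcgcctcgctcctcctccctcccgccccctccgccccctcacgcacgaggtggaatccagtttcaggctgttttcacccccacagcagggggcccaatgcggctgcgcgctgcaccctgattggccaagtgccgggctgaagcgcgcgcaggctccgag
Tdrd1, chr19:56825959-56826208, plus strand: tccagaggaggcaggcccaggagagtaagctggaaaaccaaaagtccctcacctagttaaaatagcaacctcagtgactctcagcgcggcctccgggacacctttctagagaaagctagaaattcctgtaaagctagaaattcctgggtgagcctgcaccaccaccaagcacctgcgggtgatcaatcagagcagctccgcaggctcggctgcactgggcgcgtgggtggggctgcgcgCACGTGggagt
Tdrd9, chr12:111971309-111971558, plus strand: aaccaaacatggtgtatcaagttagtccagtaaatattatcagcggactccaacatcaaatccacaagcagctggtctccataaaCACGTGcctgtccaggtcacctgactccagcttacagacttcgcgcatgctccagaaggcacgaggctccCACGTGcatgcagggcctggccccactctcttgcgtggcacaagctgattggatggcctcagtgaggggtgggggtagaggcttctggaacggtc
Mov10l1, chr15:88982744-88982908, plus strand: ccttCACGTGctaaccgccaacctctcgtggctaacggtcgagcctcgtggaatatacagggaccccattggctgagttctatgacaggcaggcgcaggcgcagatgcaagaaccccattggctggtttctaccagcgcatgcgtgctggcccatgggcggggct
Dazl, the most abundant member, had no E-box in its window and is shown for comparison.
Dazl, chr17:50293637-50293870, minus strand: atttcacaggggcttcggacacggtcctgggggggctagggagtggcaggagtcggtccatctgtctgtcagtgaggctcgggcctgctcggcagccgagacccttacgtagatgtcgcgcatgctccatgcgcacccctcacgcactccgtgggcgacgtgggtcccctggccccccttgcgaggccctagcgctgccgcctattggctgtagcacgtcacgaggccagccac
Read 5′ to 3′ on the strand of the gene, the E-box began 29 bases before the RefSeq start in Ddx4, 223 in Mael, 11 in Tdrd1, 165 and 95 in Tdrd9 and 246 in Mov10l1. Without the 100 bases farthest from the start, 3 of the 9 members (Ddx4, Tdrd1 and Tdrd9) and 4.30% of all genes still held it. An E2F-like motif (TTCCCGC, both strands) was in 1 of the 9 windows, that of Ddx4, against 3.84% of all genes, and it did not overlap the E-box. The palindromic NRF1 consensus motif was in 0 of the 9 windows and in 0.781% of all. The windows held a median of 15 CpG (7 in Gtsf1 to 31 in Ddx4), where the median over all genes was 6. The E-box itself holds a CpG, and its share in all genes was not matched to the members for CpG. Of the 5 members with an E-box, Ddx4, Mael and Mov10l1 were among those called lower in tc;Sf1ESCs than in tcESCs, Tdrd9 was called higher there, and Tdrd1 was not called. Of the 4 searched without one, Dazl and Asz1 were called lower there too, and Piwil4 and Gtsf1 were not called. Matches of letters describe these windows and were not tested as sites.

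The PIWI genes among the members had unlike orders of the 4 groups. Piwil4 (ENSMUSG00000036912, chr9:14696230-14740733, minus strand) encodes MIWI2, the nuclear PIWI protein that takes piRNAs to transposon loci in fetal germ cells. It had 3 and 3 counts in tcESCs, 5 and 6 in tc;Sf1ESCs, 14 and 8 in SCLCs, and 340 and 199 in todPGCLCs. The todPGCLC libraries stood far above the other 6, which had from 3 to 14 counts, where 3 counts were taken as the limit of detection. Pooled over libraries, its level in todPGCLCs was 93.1 times that in tcESCs, with an exact 95% counting interval of 42.5 to 255 that covers counting error only. The log2 fold change from edgeR was 6.40 ± 0.45 (SE) against tcESCs, 5.48 ± 0.41 against tc;Sf1ESCs and 4.49 ± 0.37 against SCLCs, given here as a description, since the gene was tested only through its high group. For the same reason its call above tcESCs in SCLCs (log2 1.91 ± 0.65, adjusted p = 0.0255) carries little weight. It rests on 22 counts against 6, a ratio of 3.70 with a counting interval of 1.45 to 11.2, the gene did not pass the filter in fits without the todPGCLC libraries, and the call was lost without tcESC replicate 1, tcESC replicate 2 or SCLC replicate 1 (adjusted p = 0.0755, 0.118 and 0.169). The ESC lines differed by 0.93 ± 0.74 (adjusted p = 0.38) and SCLCs and tc;Sf1ESCs by 0.98 ± 0.58 (adjusted p = 0.154). A GENCODE antisense gene, Gm10706, and a pseudogene on the other strand, Gm15586, overlap Piwil4. They held at most 6 and 4 counts in any library.

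Piwil2 (ENSMUSG00000033644, chr14:70372477-70429383, minus strand) encodes MILI, the cytoplasmic PIWI protein that makes and amplifies piRNAs. It was found in all 4 groups, with 913 and 1014 counts in tcESCs, 255 and 259 in tc;Sf1ESCs, 533 and 325 in SCLCs, and 577 and 414 in todPGCLCs. tcESCs held the highest level, 34.5 ± 2.04 CPM (SD, n = 2 libraries), and tc;Sf1ESCs the lowest, 9.60 ± 0.34 CPM, and neither pair of libraries overlapped any other. It fell by 1.83 ± 0.25 on the log2 scale from tcESCs to tc;Sf1ESCs (adjusted p = 0.000906). Relative to tcESCs it fell by 1.08 ± 0.24 in SCLCs (adjusted p = 0.00329), a value that was -0.71 and under the fold limit without SCLC replicate 2. In todPGCLCs against tcESCs the value was -0.99 ± 0.24 (adjusted p = 0.00677), just under a 2-fold change and therefore not called, while it was called lower, at -1.01, with RLE size factors, with both other filters, in the fit of only the 4 libraries, by DESeq2 and with the replicate number as a block, and also without tcESC replicate 2 (-1.10) or without todPGCLC replicate 1 (-1.21). todPGCLCs and SCLCs overlapped (log2 0.10 ± 0.25, adjusted p = 0.744), and todPGCLCs and SCLCs stood 0.84 ± 0.25 and 0.75 ± 0.26 above tc;Sf1ESCs (adjusted p = 0.0171 and 0.0263), under the fold limit. Those 2 values passed it without todPGCLC replicate 2 (1.05) and without SCLC replicate 2 (1.12).

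**Figure D3:**
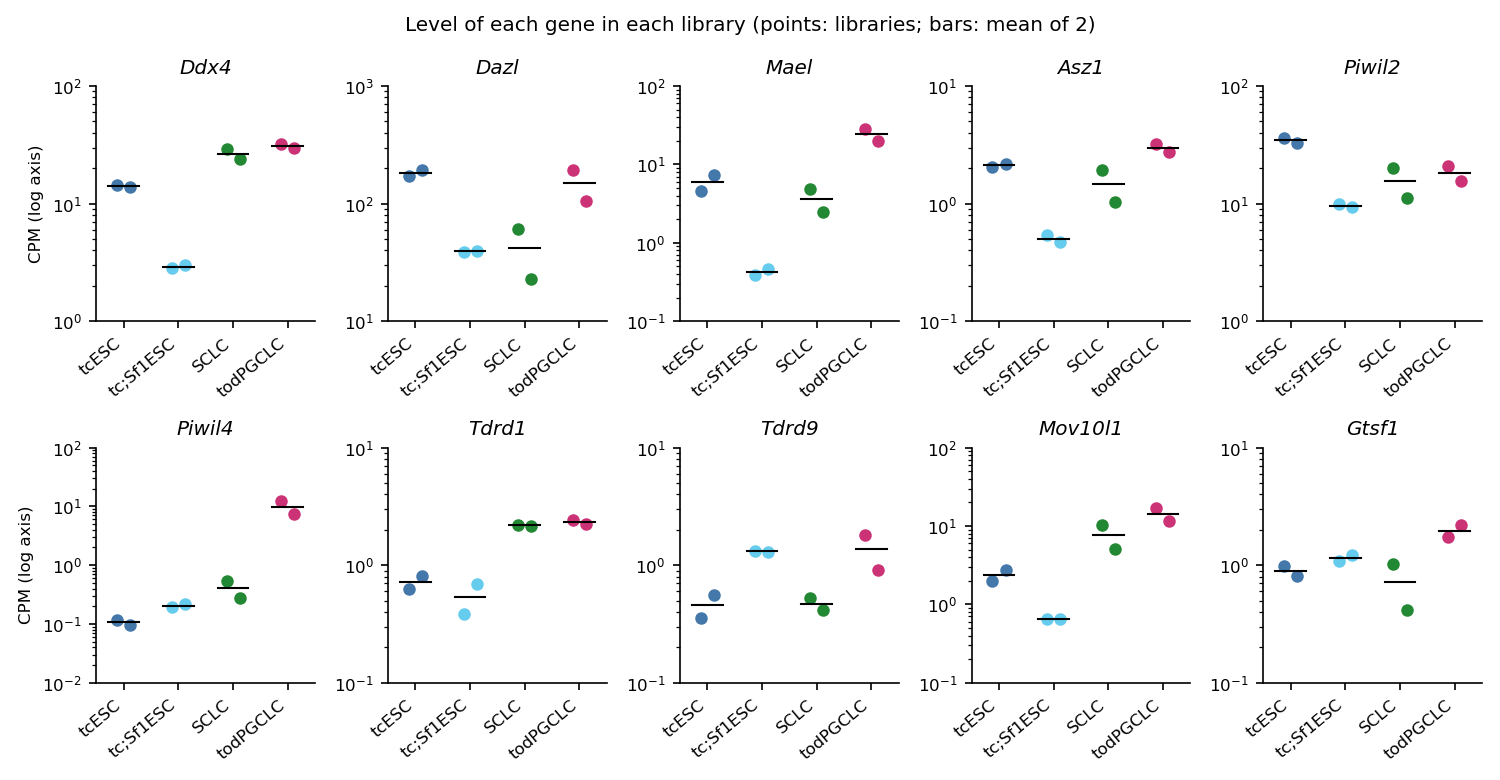
Level of each member in each library (y axis, CPM on a log scale that differs between panels), with 1 point per library and a bar at the mean of 2. Piwil4 is at 0.0978 to 0.528 CPM in 6 libraries and at 7.49 and 12.3 CPM in todPGCLCs, and the tc;Sf1ESC points lie lowest for Ddx4, Mael, Asz1, Piwil2 and Mov10l1.

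Mov10l1, Asz1 and Gtsf1 encode proteins that work beside the PIWI proteins. Mov10l1 (ENSMUSG00000015365, chr15:88982909-89055152, plus strand) encodes the helicase that feeds precursor transcripts into piRNA production. It had 50 and 83 counts in tcESCs, 17 and 18 in tc;Sf1ESCs, 274 and 148 in SCLCs, and 470 and 310 in todPGCLCs. The 4 groups did not overlap and ran upwards in the order tc;Sf1ESCs, tcESCs, SCLCs, todPGCLCs. todPGCLCs were called above tc;Sf1ESCs (log2 4.36 ± 0.42, adjusted p = 3.09e-05) and above tcESCs (2.54 ± 0.35, adjusted p = 0.000307), but not above SCLCs (0.77 ± 0.32, adjusted p = 0.0586). That last value was past the fold limit without SCLC replicate 1 (1.35) and without todPGCLC replicate 2 (1.02). SCLCs were called above tc;Sf1ESCs (3.59 ± 0.43, adjusted p = 6.45e-05) and tcESCs (1.77 ± 0.36, adjusted p = 0.00179, and 1.18 without SCLC replicate 1). From tcESCs to tc;Sf1ESCs it fell by 1.82 ± 0.46 (adjusted p = 0.016), a call lost without tcESC replicate 2 or without either tc;Sf1ESC library (adjusted p = 0.0775 to 0.0988).

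Asz1 (ENSMUSG00000010796, chr6:18050964-18109061, minus strand) encodes GASZ, a protein of the mitochondrial outer membrane that anchors piRNA factors in the intermitochondrial cement. Its counts were 52 and 67 in tcESCs, 14 and 13 in tc;Sf1ESCs, 51 and 30 in SCLCs, and 88 and 73 in todPGCLCs. The tc;Sf1ESC libraries lay below the other 6. It fell by 2.05 ± 0.36 from tcESCs to tc;Sf1ESCs (adjusted p = 0.00284) and was higher than in tc;Sf1ESCs by 1.58 ± 0.37 in SCLCs (adjusted p = 0.00419) and by 2.46 ± 0.35 in todPGCLCs (adjusted p = 0.000299). The median gene on chromosome 6 stood at -0.32 in tc;Sf1ESCs, -0.31 in SCLCs and -0.29 in todPGCLCs relative to tcESCs, and on the chromosomes of the other members it stayed within 0.14 of 0 in these 3 comparisons. The part of this shift in the values of Asz1 was not tested. In todPGCLCs and SCLCs, Asz1 did not pass the test against tcESCs (0.42 ± 0.29 and -0.47 ± 0.31, adjusted p = 0.246 and 0.205). todPGCLCs stood 0.88 ± 0.30 above SCLCs (adjusted p = 0.0283), under the fold limit, and past it at 1.38 without SCLC replicate 1 and at 1.01 with library totals.

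Gtsf1 (ENSMUSG00000022487, chr15:103402405-103430470, minus strand) encodes a small zinc finger protein that works with PIWI proteins in silencing. Its counts were low throughout, with 25 and 25 counts in tcESCs, 28 and 34 in tc;Sf1ESCs, 27 and 12 in SCLCs, and 48 and 58 in todPGCLCs. Both todPGCLC libraries were the highest. todPGCLCs were called above tcESCs by 1.06 ± 0.38 (adjusted p = 0.0376) and above SCLCs by 1.33 ± 0.39 (adjusted p = 0.014). The first call was lost when any of its 4 libraries was left out (adjusted p = 0.0618 to 0.203), and the second without SCLC replicate 2 or todPGCLC replicate 2 (adjusted p = 0.0624 and 0.0707) or in the fit of only the 4 libraries compared (adjusted p = 0.0511), while without SCLC replicate 1 the value was 2.09. Against tc;Sf1ESCs the value in todPGCLCs was 0.67 ± 0.37 (adjusted p = 0.14). Neither the SCLC and ESC comparisons nor that of the ESC lines passed the test for Gtsf1 (adjusted p = 0.178 to 0.571). The value of SCLCs minus tc;Sf1ESCs was -1.42 without SCLC replicate 1.

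The Tudor domain genes were expressed at low levels. Tdrd1 (ENSMUSG00000025081, chr19:56826209-56870012, plus strand) encodes a scaffold that binds MILI through methylated arginines. Its counts were 16 and 25 in tcESCs, 10 and 19 in tc;Sf1ESCs, 58 and 63 in SCLCs, and 67 and 59 in todPGCLCs. The ESC libraries of both lines overlapped and all 4 lay below the SCLC and todPGCLC libraries. SCLCs were higher than tcESCs by 1.64 ± 0.31 (adjusted p = 0.00114) and than tc;Sf1ESCs by 2.05 ± 0.32 (adjusted p = 0.000388), and todPGCLCs by 1.60 ± 0.31 and 2.01 ± 0.32 (adjusted p = 0.00181 and 0.000575). The value of todPGCLCs minus SCLCs was -0.04 ± 0.27 (adjusted p = 0.911), and that of tc;Sf1ESCs minus tcESCs was -0.41 ± 0.36 (adjusted p = 0.421).

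Tdrd9 (ENSMUSG00000054003, chr12:111971559-112068854, plus strand) encodes a Tudor domain helicase that acts with MIWI2. It was the only member called higher in tc;Sf1ESCs than in tcESCs. Its counts were 9 and 17 in tcESCs, 34 and 36 in tc;Sf1ESCs, 14 and 12 in SCLCs, and 50 and 24 in todPGCLCs. tc;Sf1ESCs and todPGCLCs overlapped at the upper level (log2 -0.03 ± 0.37, adjusted p = 0.957), and tcESCs and SCLCs at the lower (0.09 ± 0.48, adjusted p = 0.882). The rise in tc;Sf1ESCs was 1.51 ± 0.43 (adjusted p = 0.0252), that in todPGCLCs over tcESCs 1.49 ± 0.42 (adjusted p = 0.0139) and over SCLCs 1.40 ± 0.42 (adjusted p = 0.016), and SCLCs fell by 1.43 ± 0.43 relative to tc;Sf1ESCs (adjusted p = 0.0142). Each of these 4 calls was lost without some library: the first without any of its 4 (adjusted p = 0.0731 to 0.158), the second without tcESC replicate 1 or todPGCLC replicate 1 (0.102 and 0.117), the third without SCLC replicate 2 or todPGCLC replicate 1 (0.0602 and 0.138), and the last without SCLC replicate 2 (0.054).

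Mael, Ddx4 and Dazl encode proteins of the RNA granules themselves. Mael (ENSMUSG00000040629, chr1:166201201-166238747, minus strand) encodes Maelstrom, a nuage protein needed for transposon silencing. It had 118 and 228 counts in tcESCs, 10 and 13 in tc;Sf1ESCs, 128 and 71 in SCLCs, and 785 and 523 in todPGCLCs. The todPGCLC libraries were highest and the tc;Sf1ESC libraries lowest, with tcESCs and SCLCs overlapping between them. Mael showed the largest fold change of all members between the ESC lines, a fall of 3.79 ± 0.47 in tc;Sf1ESCs (adjusted p = 0.00053). It was higher in todPGCLCs than in tc;Sf1ESCs by 5.71 ± 0.45 (adjusted p = 9.91e-06), a value within the spread of that of Piwil4 (5.48 ± 0.41). It was also called higher in todPGCLCs than in tcESCs (1.92 ± 0.32, adjusted p = 0.00092) and SCLCs (2.60 ± 0.34, adjusted p = 0.000146) and in SCLCs than in tc;Sf1ESCs (3.11 ± 0.49, adjusted p = 0.000395). SCLCs and tcESCs differed by -0.69 ± 0.35 (adjusted p = 0.105), and by -1.24 without SCLC replicate 1.

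Ddx4 (ENSMUSG00000021758, chr13:112598333-112652475, minus strand) encodes the mouse Vasa homologue, a DEAD-box helicase that marks germ cells from the time they settle in the gonad. It had 365 and 429 counts in tcESCs, 73 and 83 in tc;Sf1ESCs, 772 and 698 in SCLCs, and 885 and 792 in todPGCLCs. The transcript of this germ cell marker was therefore nearly as high in the sorted SCLCs, at 26.6 ± 3.63 CPM, as in todPGCLCs, at 31.0 ± 1.64 CPM (SD, n = 2 libraries each). The log2 difference was 0.09 ± 0.12 (adjusted p = 0.516), although both todPGCLC libraries lay above both SCLC libraries in CPM. It fell by 2.27 ± 0.14 from tcESCs to tc;Sf1ESCs (adjusted p = 2.16e-05) and was higher than in tc;Sf1ESCs by 3.23 ± 0.14 in SCLCs (adjusted p = 1.58e-07) and by 3.32 ± 0.14 in todPGCLCs (adjusted p = 4.82e-07). Relative to tcESCs the rise in todPGCLCs was 1.06 ± 0.12 (adjusted p = 9.72e-05), and 0.99 without tcESC replicate 2, while SCLCs stood 0.97 ± 0.12 above (adjusted p = 9.18e-05), and 1.11 without SCLC replicate 2. These values lie on both sides of the 2-fold limit.

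Dazl (ENSMUSG00000010592, chr17:50279395-50293636, minus strand) encodes an RNA-binding protein that controls translation in germ cells and is needed for them to commit to gametogenesis. It had 4357 and 5876 counts in tcESCs, 1010 and 1093 in tc;Sf1ESCs, 1606 and 666 in SCLCs, and 5351 and 2778 in todPGCLCs. tcESCs and todPGCLCs overlapped at the upper level (log2 -0.35 ± 0.38, adjusted p = 0.451), and tc;Sf1ESCs and SCLCs at the lower (0.13 ± 0.41, adjusted p = 0.789). It fell by 2.19 ± 0.41 from tcESCs to tc;Sf1ESCs (adjusted p = 0.00387). Relative to tcESCs it fell by 2.07 ± 0.41 in SCLCs (adjusted p = 0.00154), and todPGCLCs were higher than SCLCs by 1.71 ± 0.40 (adjusted p = 0.00461) and than tc;Sf1ESCs by 1.84 ± 0.41 (adjusted p = 0.00354). Without SCLC replicate 1 the values against SCLCs were larger in size, -2.91 and 2.56.

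Levels were compared between members as CPM per kb of annotated exon. Dazl had the highest mean in every group, at 47.5 ± 3.71 CPM per kb in tcESCs, 10.3 ± 0.10 in tc;Sf1ESCs, 10.9 ± 6.98 in SCLCs and 39.1 ± 16.6 in todPGCLCs (SD, n = 2 libraries). In tcESCs Piwil2 (6.52 ± 0.39) and Ddx4 (4.70 ± 0.09) came next, and in todPGCLCs Mael (13.9 ± 3.60) and Ddx4 (10.3 ± 0.54). In SCLCs the level of Ddx4 (8.81 ± 1.21) lay within the spread of Dazl. Piwil4 was the lowest member in tcESCs (0.0200 CPM per kb) and tc;Sf1ESCs (0.0380). In SCLCs its mean was 0.0746 ± 0.033, and that of Tdrd9 (0.0869 ± 0.015) lay within this spread. In todPGCLCs Piwil4 reached 1.84 ± 0.64, above Asz1, Tdrd1 and Tdrd9, while the level of Gtsf1 (1.41 ± 0.22) lay within the spread of Piwil4.

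**Figure D4:**
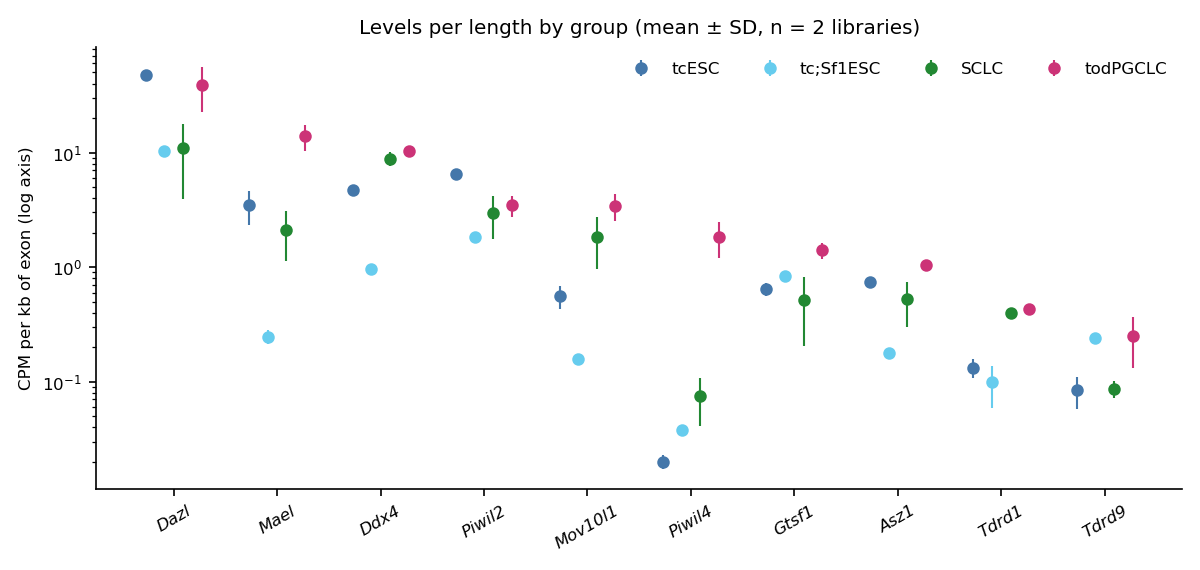
Level per length of each member (y axis, CPM per kb of exon, log scale) in the 4 groups, as mean ± SD of 2 libraries, with members in order of their level in todPGCLCs. Dazl has the highest mean in all 4 groups, and Piwil4 runs from 0.0200 in tcESCs, at the limit of detection, to 1.84 in todPGCLCs.

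The libraries of a group were not equally alike. All 10 members were higher in SCLC replicate 1 than in replicate 2, by 1.01 times for Tdrd1 up to 2.65 times for Dazl, where 51.7% of all genes tested were higher in replicate 1. In todPGCLCs 9 of 10 were higher in replicate 1 than in replicate 2 (50% of all genes), the exception being Gtsf1, with ratios up to 2.01 for Tdrd9. SCLC replicate 1 also held more of the naive ESC and PGC markers (632 and 646 CPM, against 575 and 504 in replicate 2). The same held for the meiosis (144 against 91.8 CPM) and mesenchyme markers (1161 against 1068 CPM), and for the further piRNA list described below (291 against 176 CPM). SCLC replicate 2 held more of the visceral endoderm (1026 against 755 CPM) and Sertoli markers (457 against 442 CPM). In todPGCLCs, replicate 1 held more of the naive ESC markers (1274 against 1163 CPM) but less of the PGC markers (1103 against 1147 CPM). It also held less of the visceral endoderm (16.5 against 28.5 CPM) and meiosis markers (184 against 211 CPM). The part of these differences in the members' values was not tested.

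The wider pathway was read from 4 further lists. Of 17 other genes of piRNA biogenesis and function, 13 were tested and 3 were called higher and 1 lower in todPGCLCs than in tcESCs, near the 18.1% and 11.2% of all genes. Gpat2, a mitochondrial protein needed to make piRNAs, had 104 and 121 counts in tcESCs, 329 and 372 in tc;Sf1ESCs, 1002 and 690 in SCLCs, and 3360 and 2678 in todPGCLCs. It rose by 4.72 ± 0.23 (adjusted p = 9.76e-07). Tdrkh, which tethers PIWI proteins to mitochondria for trimming of piRNAs, rose by 4.33 ± 0.31 (adjusted p = 7.33e-06) from 7 and 13 counts to 228 and 183, and Exd1, a partner of Tdrd12, by 1.26 ± 0.24 (adjusted p = 0.00185). Tex15, a nuclear partner of MIWI2, fell by 1.78 ± 0.07 (adjusted p = 5.25e-07). Piwil1, the PIWI gene of later spermatogenesis, had 21 and 56 counts in tcESCs and 31 and 27 in todPGCLCs. The list's median log2 fold change was -0.04, beside 0.03 for all genes tested.

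Of 10 other genes of Tudor proteins and arginine methylation, 9 were tested and 2 were called higher and 1 lower in todPGCLCs than in tcESCs (median 0.15), again near the shares of all genes. Tdrd7, a granule scaffold, rose by 4.13 ± 0.19 (adjusted p = 7.69e-07), with 28 and 60 counts in tcESCs and 770 and 784 in todPGCLCs, and it was higher still in SCLCs, with 1588 and 1871. Tdrd5 rose by 2.22 ± 0.17 (adjusted p = 1.1e-05). Prmt5, the enzyme that methylates the arginines of PIWI proteins that Tudor domains bind, fell by 1.04 ± 0.13 (adjusted p = 0.000135). Of 13 other genes of germ cell granules and RNA binding, 12 were tested and 5 were called higher and 0 lower (median 0.57), beside 18.1% and 11.2% of all genes. Dnd1, an RNA-binding partner of the Nanos proteins, rose by 3.04 ± 0.36 (adjusted p = 0.000114), Rbm46 by 2.10 ± 0.33 (adjusted p = 0.000617), and Cpeb1, which controls polyadenylation in the cytoplasm, by 1.81 ± 0.26 (adjusted p = 0.000361). Ybx2 and Ddx25 were the other two. Of 12 genes of the PCGF6, E2F6 and MGA repressor, a Polycomb complex known to hold germline genes silent in ESCs, all were tested and 1, Yaf2, was called higher (1.47 ± 0.12, adjusted p = 1.34e-05) and 0 lower, beside the same shares, with a list median of -0.52.

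Between the ESC lines, where 6.13% of all genes were called higher and 5.85% lower, genes of 3 of the 4 lists were called. The piRNA list had 13 genes tested, the Tudor list 9, the granule list 12 and the repressor list 12. In tc;Sf1ESCs against tcESCs, 2 genes of the piRNA list were called higher (Gpat2, 1.72 ± 0.23, and Fkbp6, 2.34 ± 0.23) and 2 lower (Tex15, -1.01 ± 0.07, and Dnmt3l, -1.61 ± 0.29), with a median of -0.09. In the Tudor list 0 were called higher and 2 lower (Tdrd12, -1.22 ± 0.35, and Rnf17, -1.37 ± 0.19). In the granule list 1 was called higher (Nanos3, 2.23 ± 0.34) and 2 lower (Boll, -2.08 ± 0.32, and Rbm46), and in the repressor list 0 of 12 were called in either direction. Rbm46 had 39 counts over both tcESC libraries and 4 over both tc;Sf1ESC libraries. Taken at the limit of detection, it was lower by at least 6.28 times. The median was -0.17 in the Tudor list, 0.00 in the granule list and -0.04 in the repressor list.

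**Figure D5:**
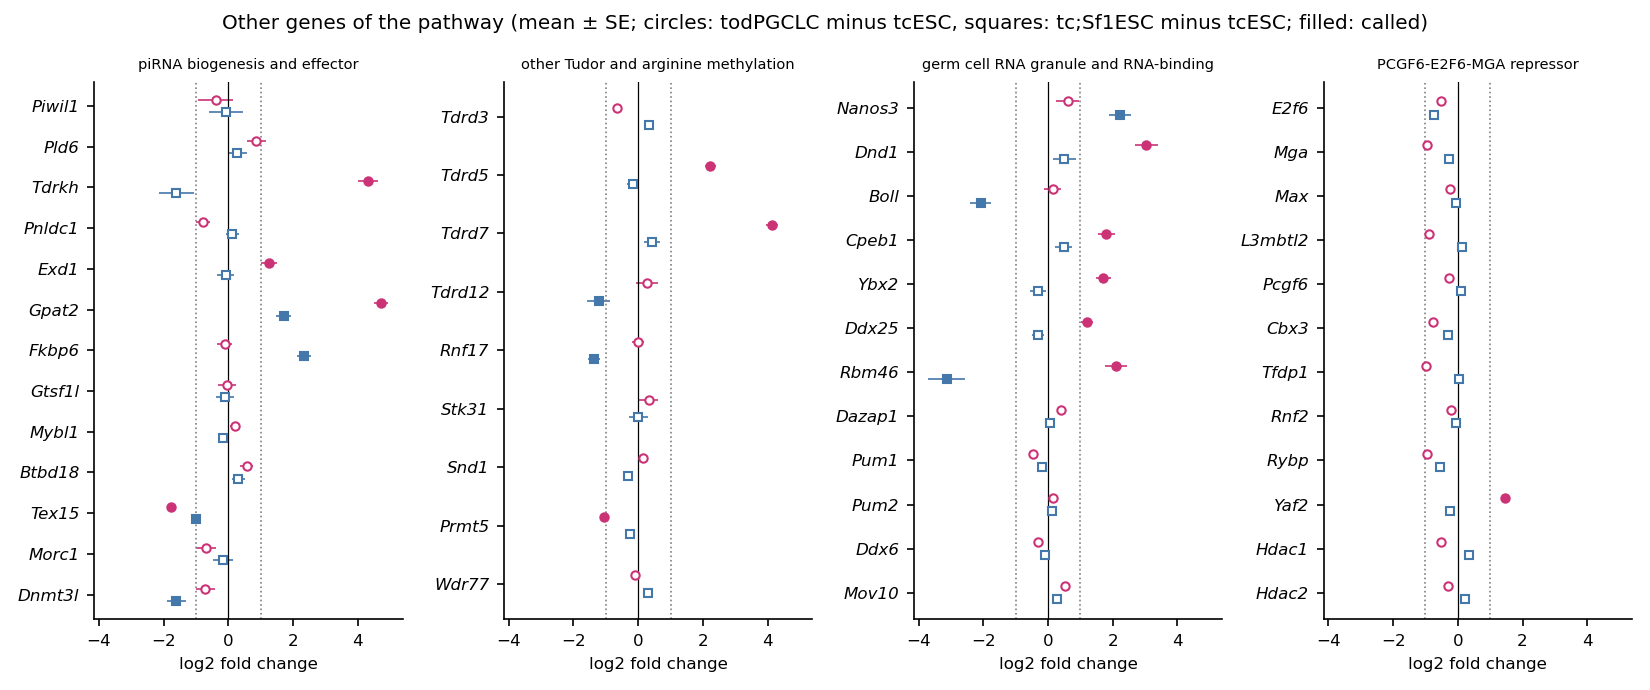
Log2 fold change ± SE (x axis) of the tested genes of the 4 further lists, in todPGCLCs minus tcESCs (circles) and tc;Sf1ESCs minus tcESCs (squares), filled where called. Gpat2, Tdrkh and Tdrd7 stand at over 4 in todPGCLCs, and the 12 genes of the repressor list are uncalled between the ESC lines.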

How the data were processed

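The 8 libraries (4 groups of 2) were sequenced as paired reads of 50 bases. Per the labels and the study's methods, the authors trimmed the reads with Trim Galore, aligned them with STAR 2.4.0 to GRCm38, used Picard and counted reads on genes with HTSeq. The deposited values are raw counts per Ensembl gene ID. The annotation release and the counting mode are not given in the sources used here. Of all rows, HTSeq set aside 20.5% to 27.5% as not unique, 6.45% to 8.32% as on no feature and 2.96% to 3.14% as ambiguous, and these stayed out of library sizes, so genes with near-identical copies can be undercounted. Genes were named and placed with GENCODE M21 (45229 of 46078 IDs, 849 without a name). Library totals ran from 25411033 to 30680191 counts, and a count of 3 equals 0.0978 to 0.118 CPM. Intervals and this limit cover counting error only.

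CPM are counts scaled to the library total. All 8 libraries were fitted together with edgeR 4.0.16 under R 4.3.3 (TMM factors 0.957 to 1.05, mean count above 10, 16707 genes), with 4 groups and no block, and tested by quasi-likelihood for 6 comparisons. DESeq2 1.42.0 was an alternative, beside other scalings, filters, libraries in the fit, limits, a replicate block and each library left out. With a library left out, its group kept a single library and added no spread. Adjusted p-values and calls of those fits therefore rest on the spread of the other groups. On data simulated for todPGCLCs against tcESCs with 4-fold changes planted in 199 of 16571 genes, edgeR recovered 196 with 3 false calls. Every simulated gene had the same dispersion, so this recovery does not carry over to noisier genes or to changes near the fold limit. The libraries of a group are described as biological duplicates, and p-values measure the spread between them, pooled over the 4 groups of the fit. The tc;Sf1ESC libraries come from a single clone, so no spread between clones is measured. No deposited columns of fold changes were used.

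The members and the gene lists were chosen with earlier results of these data known, so lists are described by counts and medians without a test. Named beside the members are, per pathway list, up to 3 genes with the largest change in each direction called in todPGCLCs against tcESCs with a mean of at least 1 CPM and no overlap, and the genes called between the ESC lines, which were added after their values were seen, as were the levels of Piwil1, the names of Ybx2 and Ddx25 and the shares of all genes beside the counts over libraries. Marker genes are given as summed levels, and the single markers named beside the sums were chosen after their values were seen. Promoter windows are the 250 bases before RefSeq starts. Where there were several starts, that nearest the GENCODE gene start was used for members and the first listed for all genes. Protein sequences were not used here.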

Additional observations from a re-analysis of the deposited data

How the results depend on the processing

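Under RLE size factors, library totals, both other filters, a fit of only the libraries compared and DESeq2, each count of members called stayed within 1.5 times its value. Counts moved by more than that in a test against a 2-fold change, which called 3 members in SCLCs against tcESCs, 3 in tc;Sf1ESCs against tcESCs, 2 in todPGCLCs against SCLCs and 3 in todPGCLCs against tcESCs, and over all genes 624 in tc;Sf1ESCs against tcESCs (2002 in the reported fit) and 3078 in todPGCLCs against tcESCs (4906), and at an adjusted p limit of 0.01, with 3 in todPGCLCs against SCLCs. Without the 100 bases farthest from the start, the E-box was in 3 promoter windows. Library totals in place of TMM factors shift every gene by 0.13 in todPGCLCs minus SCLCs, and turned 2 uncalled values, Tdrd9 in todPGCLCs minus tc;Sf1ESCs (0.061) and Tdrd1 in todPGCLCs minus SCLCs (0.10).

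With 1 library left out, members called in todPGCLCs against SCLCs ran from 3 (without SCLC replicate 2) to 7 (without SCLC replicate 1). Uncalled values that changed sign ranged from -0.86 to 0.034 for Dazl in todPGCLCs minus tcESCs, -0.61 to 0.39 for Tdrd9 in todPGCLCs minus tc;Sf1ESCs, -0.049 to 0.22 for Ddx4, -0.28 to 0.57 for Piwil2 and -0.10 to 0.035 for Tdrd1 in todPGCLCs minus SCLCs, -0.72 to 0.68 for Dazl in SCLCs minus tc;Sf1ESCs, and -0.21 to 0.42 for Tdrd9 and -1.03 to 0.25 for Gtsf1 in SCLCs minus tcESCs. The count in todPGCLCs against tcESCs gained Piwil2, called lower, under RLE size factors, both other filters, the fit of 4 libraries, DESeq2 and the block, and without tcESC replicate 2 or todPGCLC replicate 1. With library totals Asz1 was called in todPGCLCs against SCLCs (1.01, adjusted p = 0.0155), and in the fit of 4 libraries Gtsf1 was not (adjusted p = 0.0511). By DESeq2, Gtsf1 in todPGCLCs against tcESCs (adjusted p = 0.104) and Tdrd9 in tc;Sf1ESCs against tcESCs (adjusted p = 0.0627) were not called. The cause of these changes was not tested.

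The groups share replicate numbers, but same-numbered libraries did not deviate together (correlations of -0.0244 to 0.0577 across genes), so the numbers were not taken as pairs. With the replicate block, 8 members were called in todPGCLCs against tcESCs (7 higher and Piwil2 lower), 7 against tc;Sf1ESCs and 5 against SCLCs, and 6, 5 and 7 in SCLCs against tc;Sf1ESCs, SCLCs against tcESCs and tc;Sf1ESCs against tcESCs. Depth limits Piwil4 outside todPGCLCs and leaves Tdrd1, Tdrd9, Gtsf1 and Asz1 with under 100 counts in every library.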
